A study of Caenorhabditis elegans with 16 samples.

Results

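The nuclear genes of the mitochondrial respiratory chain and ATP synthase were followed in Caenorhabditis elegans whose body wall muscle was forced to contract by light. Genes were taken by name from the series' expression matrix: every gene of the nuo, cox, cyc, ucr, atp, sdha, sdhb, sdhc and sdhd families that carries a number, together with gas-1, isp-1 and lpd-5, and without the mitochondrially encoded atp-6. This gave 41 of the 46904 genes in the count tables. They comprised 8 genes of complex I (NADH dehydrogenase), 4 of complex II (succinate dehydrogenase), 7 of complex III (cytochrome bc1), 2 cytochrome c genes, 7 subunits of complex IV (cytochrome c oxidase), 8 complex IV assembly factors and 5 genes of ATP synthase. All 41 were protein coding, and all passed the filter on low counts. No symbol of the sdhc family matched. The succinate dehydrogenase membrane anchor mev-1 has a symbol that the rule does not match, so complex II was described without it.

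The respiratory chain sits in the inner mitochondrial membrane. Complexes I and II pass electrons from NADH and succinate to ubiquinone, complex III hands them to cytochrome c, and complex IV reduces oxygen. Protons pumped along the way drive ATP synthase, which makes most of the ATP of aerobic cells. Most subunits are encoded in the nucleus and imported, a few are made inside the organelle, and in C. elegans loss of single subunits (gas-1, nuo-6, isp-1) is known to alter lifespan and stress responses.

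All samples were young adult populations of a single transgenic strain, PP3189, in which the body wall muscle promoter myo-3 drives a channelrhodopsin-2 variant that stays open after a light pulse. The channel needs its cofactor all-trans retinal (ATR), which was given at 0.1 mM with the bacterial food or left out. Worms received blue light (455 nm) in pulses of 5 s, each followed by 20 min of darkness, over 8 h at 18 °C, or stayed in the dark for that time. Muscle contracts in the condition light plus ATR. The 3 controls lacked the cofactor (light minus ATR), the light (dark plus ATR) or both (dark minus ATR), and each of the 4 conditions had 4 libraries. All controls carry the transgene too, no other transgenic line was sequenced, and worms ruptured by the treatment were washed off before RNA isolation. In a shorter treatment with ATR and light, the study reports rupture with ejected eggs and germline tissue in a sizeable share of worms. The light plus ATR libraries thus came from the worms that had stayed intact.

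Poly(A) RNA of whole worms was sequenced, and counts per gene ranged from 19264325 to 32374032 in total over the 16 libraries. The 41 genes took 1.10% to 1.24% of these counts. Levels are given as CPM, the count of a gene divided by the library size and put on the usual CPM scale, after TMM normalization, which sets library sizes so that most genes do not differ. A gene was called changed when its Benjamini-Hochberg adjusted p was under 0.05 over all 15044 genes tested with edgeR's quasi-likelihood test. The markers of body wall muscle, pharynx, intestine, hypodermis, neurons, germline, embryo and yolk had counts in every library, and of the sperm markers spe-38 had only 2 to 16 counts and was not tested. Because whole worms were used, fewer cells of a type and less RNA per cell cannot be told apart.

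In the light, transcripts of the 4 complexes and of ATP synthase were lower with ATR than without, with a difference in summed mean level of -9.45% for complex I, -8.8% for complex II, -9.85% for complex III, -10.6% for complex IV and -12.6% for ATP synthase. It was -5.49% for the assembly factors and 0.613% for cytochrome c. Comparing light plus ATR with light minus ATR, 18 of the 41 genes fell and 0 rose, against 7.9% of all genes tested that fell and 8.39% that rose. Their median log2 fold change was -0.14, with a range of -0.32 to 0.40, while the median of all genes tested was 0.01. The sign was negative for 39 of the 41. The genes that fell were 5 of 8 in complex I, 2 of 4 in complex II, 2 of 7 in complex III, 4 of 7 in complex IV, 1 of 8 among the assembly factors and 4 of 5 in ATP synthase, and 0 of the 2 cytochrome c genes. At an unadjusted p under 0.05, 28 of the 41 were lower and 1 higher, against 2186 and 2465 of all 15044 genes tested. The 1 higher was cyc-2.2, which DESeq2 called higher and limma did not.

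**Figure D1:**
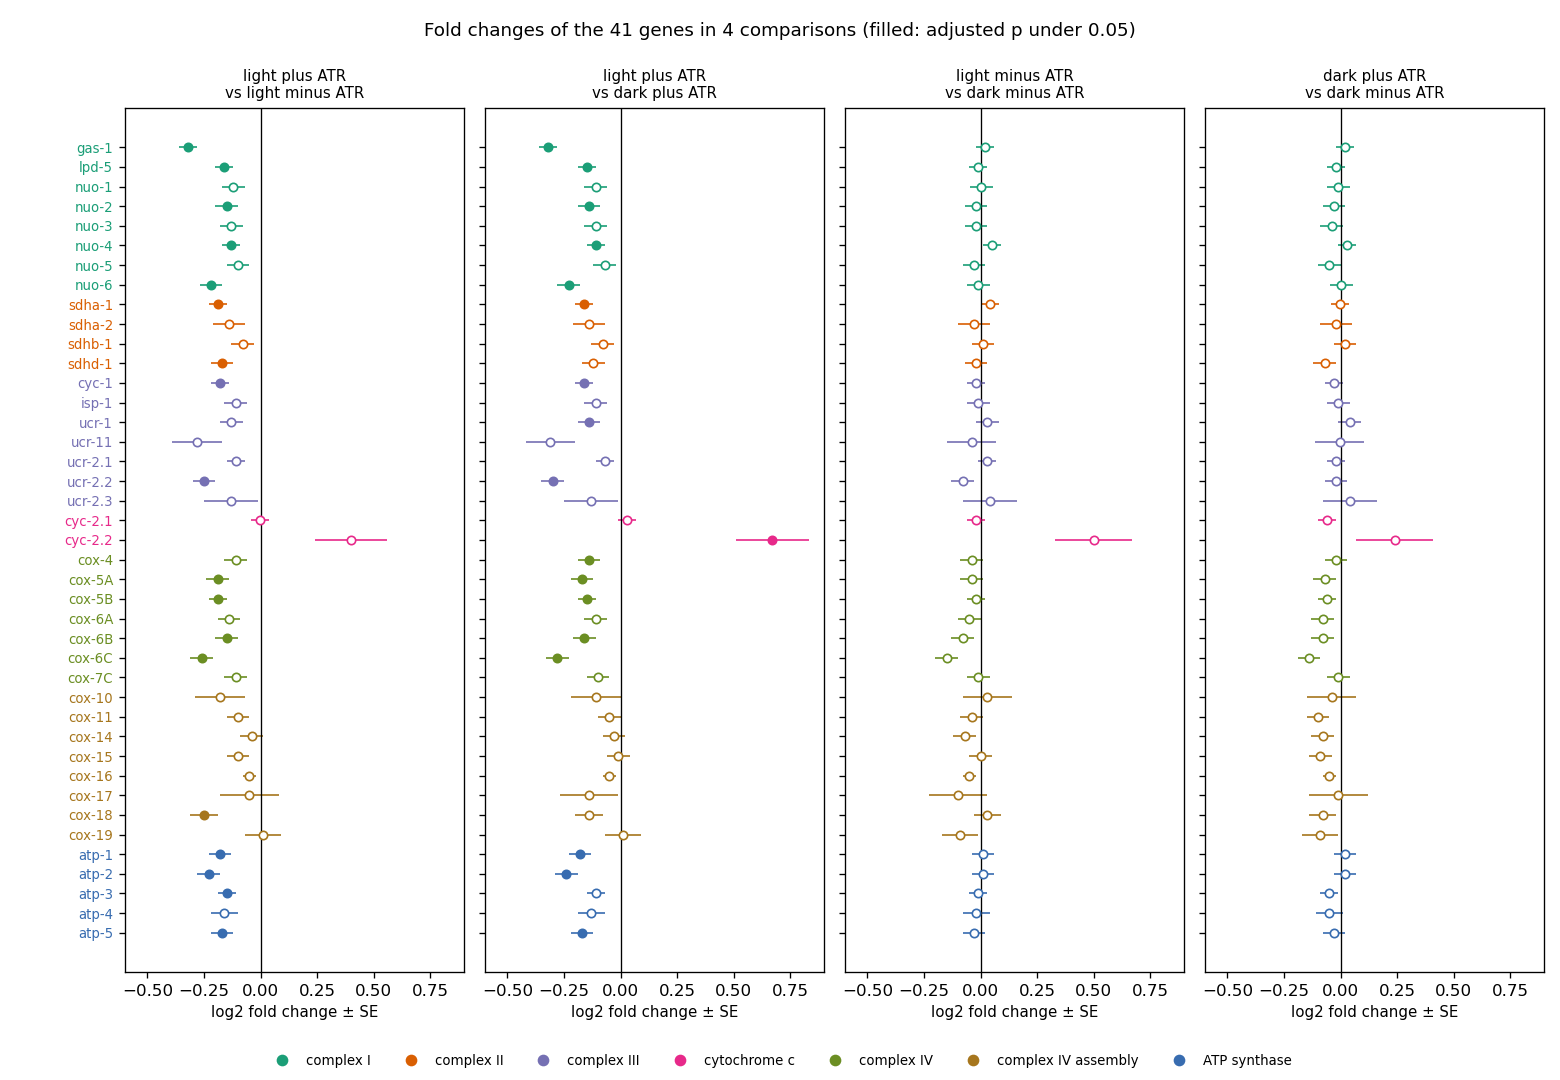
Log2 fold change with its standard error (x axis) of each of the 41 genes (y axis, coloured by complex) in 4 comparisons of 4 libraries against 4. Filled points have an adjusted p under 0.05: 18 genes are filled for light plus ATR versus light minus ATR, 18 for light plus ATR versus dark plus ATR and 0 in the remaining panels, which compare controls.

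The count depended on scaling and on libraries. With library totals instead of TMM 8 of the 18 remained, with the ERCC spike-ins 1 (gas-1) remained, and without light minus ATR replicate 2 the count was 11. The 7 calls lost without that library were nuo-2, nuo-4, sdhd-1, cox-6B, atp-1, atp-3 and atp-5, and the same 7 were lost with library totals and with ERCC counts. The median of all genes moved to 0.08 with library totals and 0.05 with ERCC counts, and the numbers of all genes lower and higher changed from 1188 and 1262 to 598 and 2057 and to 399 and 935. Without light minus ATR replicate 2 the numbers of all genes lower and higher were 733 and 886. Relative to the median of all genes the members' median was -0.15 under each of the 3 scalings, and 40, 40 and 39 of the 41 genes lay below that median with TMM, library totals and ERCC counts. The sign turned from negative to positive with library totals for cox-14, cox-16, cox-17 and cyc-2.1 and with ERCC counts for cox-14, cox-17 and cyc-2.1, none of them called.

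Summed over all 41 genes, the level was 10687, 10500, 10784 and 11341 CPM in light plus ATR and 12071, 12680, 11671 and 12031 CPM in light minus ATR. It ranged from 11830 to 12248 CPM in dark plus ATR and from 11477 to 12600 CPM in dark minus ATR. With TMM scaling the light plus ATR libraries therefore lay below all 12 control libraries, and replicate 4 was the highest of them. This separation depended on the scaling. As a share of the counts on genes, without TMM, light plus ATR replicate 4 took 1.176%. That was above replicate 3 of each control condition, at 1.131% to 1.169%. The remaining light plus ATR libraries, at 1.103% to 1.122%, stayed below every control. Overlap of libraries is described at TMM scaling throughout. The mean was 10828 ± 361 CPM (SD, n = 4) against 12113 ± 419 CPM in light minus ATR, a difference of -10.6%.

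**Figure D2:**
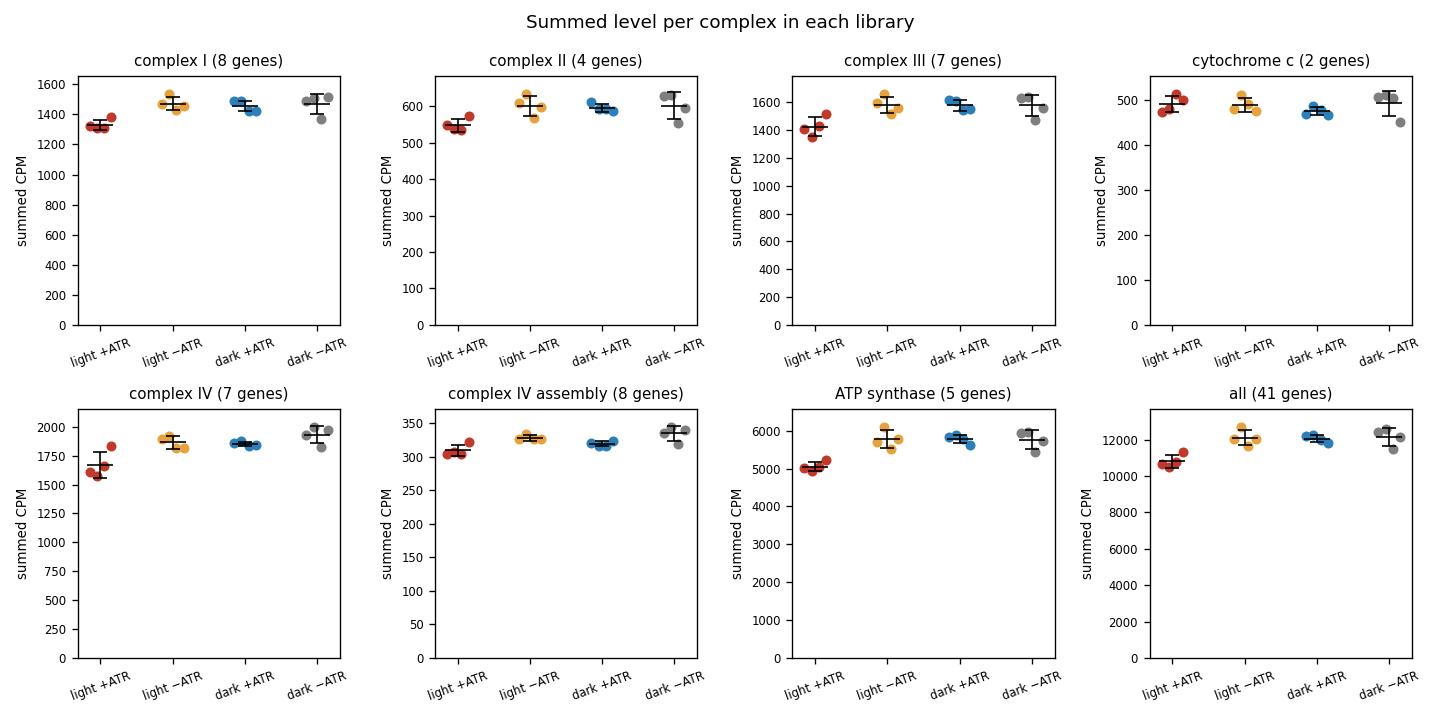
Summed CPM of the genes of each complex (y axis, from 0) in each library of the 4 conditions (x axis), with points for libraries, a line for the mean and bars for the SD over 4 libraries. The ATP synthase genes show light plus ATR at 4933 to 5221 CPM, below all control libraries, whereas the 2 cytochrome c genes overlap between all conditions.

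Levels of tissue marker transcripts differed between the same conditions. The summed level of 8 body wall muscle markers was 6142 to 6512 CPM in light plus ATR and 5103 to 6114 CPM in light minus ATR, and 4 of the 8 rose. Pharyngeal muscle markers rose for 3 of 4 (478 to 483 against 332 to 449 CPM), and the 3 vitellogenin genes, made in the intestine for the oocyte, all fell (26145 to 31652 against 34166 to 43142 CPM). Germline and oocyte markers summed to 9986 to 10580 against 10774 to 11357 CPM, with 0 of 11 called by edgeR and 3 lower at an unadjusted p under 0.05. For embryo markers the sums were 4028 to 4533 and 4486 to 4685 CPM, with 0 of 8 called and 2 lower at that unadjusted p. Among the remaining markers 2 of 6 neuronal markers rose, 1 of 6 intestinal markers rose and 1 fell, and 1 of 5 hypodermal markers fell (summed level 1226 to 1646 against 1517 to 1802 CPM). For intestinal markers the sums were 947 to 1052 and 900 to 1033 CPM, and for neuronal markers 288 to 302 and 271 to 285 CPM. The part of these differences in the fall of respiratory chain genes was not tested.

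Complex I held the gene with the smallest p of the 41. gas-1, a complex I subunit (chromosome X, 15586786 to 15590397, minus strand, WBcel235), stood at 80.5, 78.0, 83.2 and 84.5 CPM in light plus ATR and at 102, 105, 98.6 and 101 CPM in light minus ATR. Dark plus ATR ranged from 98.7 to 107 CPM and dark minus ATR from 94.9 to 110 CPM, so that light plus ATR was below all control libraries without overlap. gas-1 fell by 19.7% (log2 fold change -0.32 ± 0.04 SE, edgeR adjusted p = 2.59e-05), and its adjusted p stayed between 3.48e-05 and 0.000189 when each of the 8 libraries was left out in turn.

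nuo-6, the counterpart of the membrane arm subunit NDUFB4, had 90.7, 88.6, 93.3 and 101 CPM in light plus ATR and a mean of 109 ± 5.75 CPM in light minus ATR (SD, n = 4). No library of light plus ATR reached the controls, although replicate 4 came close, and the change was -0.22 ± 0.05 (edgeR adjusted p = 0.00159). lpd-5, the NDUFS4 counterpart that helps to attach the NADH-oxidising module, changed by -0.16 ± 0.04 (edgeR adjusted p = 0.00742). The further called genes nuo-2 (NDUFS3) and nuo-4 (NDUFA10) changed by -0.15 and -0.13, and these calls were lost in 5 and 3 of the 8 fits that left out a library (highest edgeR adjusted p = 0.0894 and 0.125). The genes not called were nuo-1, which binds NADH, at -0.12, nuo-5 (NDUFS1) at -0.10 and nuo-3 at -0.13, and nuo-3 shares 72.6% of its exon length with another gene on its strand, so its counts are uncertain.

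In complex II the flavoprotein subunit is encoded by a pair of paralogues. sdha-1 (chromosome X) had 112, 107, 108 and 107 CPM in light plus ATR and 117, 126, 124 and 129 CPM in light minus ATR. The groups did not overlap, and the 12 control libraries ranged from 117 to 129 CPM. The change was -0.19 ± 0.04 (edgeR adjusted p = 0.000479). Its paralogue sdha-2 (chromosome I), with a higher mean level per kilobase of exon (85.8 against 49.4 CPM), was at -0.14 ± 0.07 (edgeR adjusted p = 0.174), and its libraries overlapped (151 to 167 against 158 to 199 CPM). The membrane anchor sdhd-1 fell by 10.9% (-0.17 ± 0.05, edgeR adjusted p = 0.0241), and the iron-sulfur subunit sdhb-1 was at -0.08 ± 0.05 (edgeR adjusted p = 0.266).

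Complex III contains a family of core proteins, ucr-1 and ucr-2.1 to ucr-2.3. ucr-2.2 (chromosome X) had 50.8, 49.3, 55.7 and 60.1 CPM in light plus ATR against 61.5, 64.7, 64.3 and 66.5 CPM in light minus ATR. All 4 libraries were below every control library, with replicate 4 the closest, and the change was -0.25 ± 0.05 (edgeR adjusted p = 0.00163). Its paralogues ucr-2.1 (-0.11 ± 0.04, edgeR adjusted p = 0.0711) and ucr-2.3 (-0.13 ± 0.12, edgeR adjusted p = 0.478) were not called, nor was ucr-1 (edgeR adjusted p = 0.0524). cyc-1, cytochrome c1, fell by 11.7%, with 330 to 357 CPM in light plus ATR and 378 to 399 CPM in light minus ATR. isp-1, the Rieske iron-sulfur protein, had 278 to 327 CPM against 326 to 345 CPM and was not called (-0.11 ± 0.05, edgeR adjusted p = 0.0999). The small subunit ucr-11 ranged from 41.9 to 66.0 CPM between light plus ATR libraries and from 64.7 to 67.1 CPM in light minus ATR (-0.28 ± 0.11, edgeR adjusted p = 0.109).

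Cytochrome c, the mobile carrier between complexes III and IV, was the only group whose summed mean level was not lower than in light minus ATR. It differed from dark plus ATR by 3.36% and from dark minus ATR by -0.405%. The main gene cyc-2.1 had 462, 467, 496 and 479 CPM in light plus ATR and 466, 501, 479 and 462 CPM in light minus ATR. These groups overlapped and differed by -0.0029 ± 0.04 on the log2 scale (edgeR adjusted p = 0.973). The second gene, cyc-2.2, gave 13.9, 14.1, 17.1 and 21.1 CPM in light plus ATR and 13.2, 9.96, 12.4 and 14.3 CPM in light minus ATR. Here light plus ATR tended to the higher values but overlapped at 13.9 to 14.3 CPM, and the difference of 0.40 ± 0.16 was not called (edgeR adjusted p = 0.0994). Per kilobase of exon, the mean level of cyc-2.1 over all libraries was 867 CPM and that of cyc-2.2 was 27.5 CPM.

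**Figure D3:**
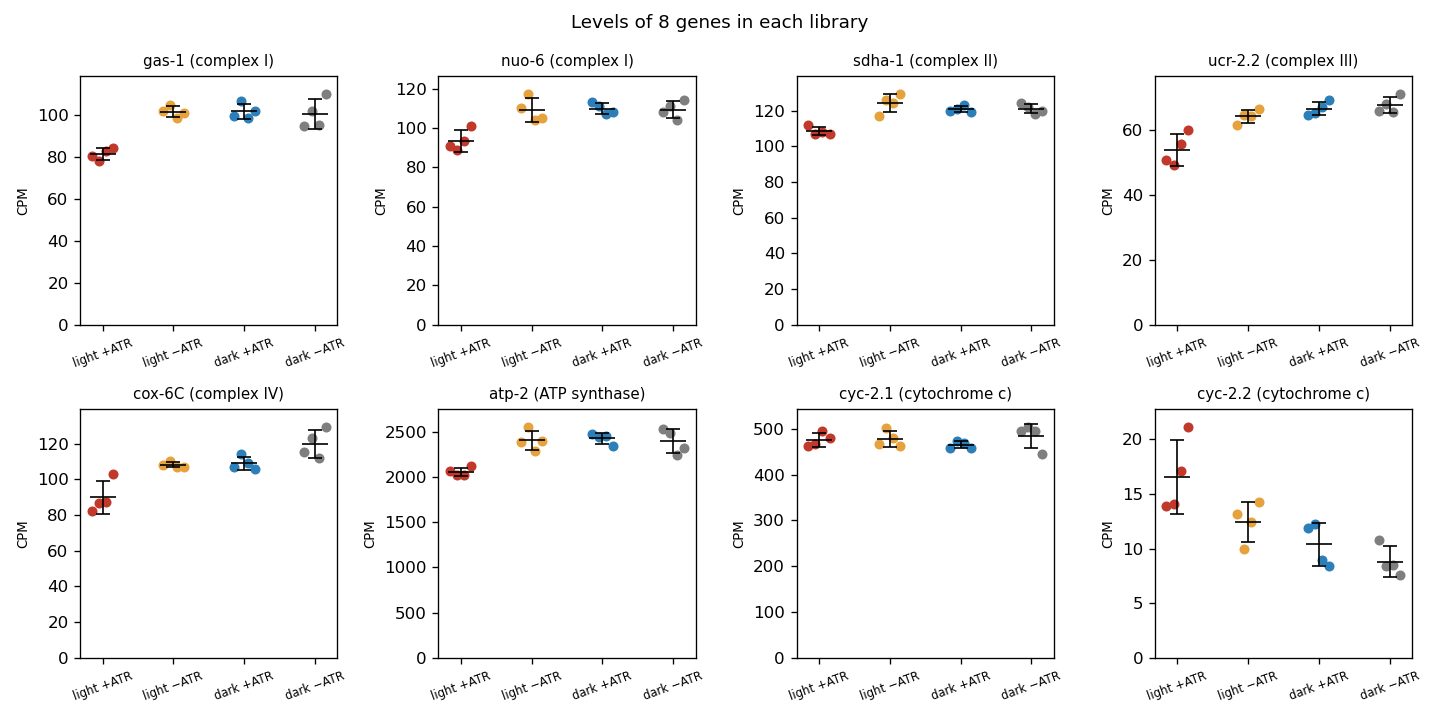
CPM (y axis, from 0) of 8 genes in each library of the 4 conditions (x axis), with the mean and SD over 4 libraries. gas-1, nuo-6, sdha-1, ucr-2.2, cox-6C and atp-2 are lowest in light plus ATR, cyc-2.1 lies between 445 and 503 CPM throughout, and the mean of cyc-2.2 is highest in light plus ATR and lowest in dark minus ATR.

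The level of cyc-2.2 was ordered over the conditions. Its mean was 16.5 ± 3.38 CPM in light plus ATR, 12.5 ± 1.85 in light minus ATR, 10.4 ± 1.99 in dark plus ATR and 8.82 ± 1.37 in dark minus ATR (SD, n = 4). Neighbouring conditions in this order overlapped. The summed level of 6 sperm markers had the same order, with 141 ± 29.8, 109 ± 18.7, 86.0 ± 19.1 and 72.4 ± 10.3 CPM, and within light plus ATR replicate 4 was the highest for both (21.1 and 182 CPM). All 6 sperm markers rose against dark plus ATR and against dark minus ATR, and 1 of 6 against light minus ATR. Their part in the level of cyc-2.2 was not tested.

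Of the complex IV subunits 4 of 7 fell, and cox-6C had the smallest p. This small subunit had 82.4, 86.6, 87.4 and 103 CPM in light plus ATR and 108, 110, 107 and 107 CPM in light minus ATR. The 4 values were below all controls, the nearest of which was 106 CPM in dark plus ATR, and the change was -0.26 ± 0.05 (edgeR adjusted p = 0.0016). cox-5B, long known as cco-1 and often silenced to provoke mitochondrial stress, fell (256 to 284 against 296 to 310 CPM, -0.19 ± 0.04, edgeR adjusted p = 0.00174). cox-5A fell by 12.4% (358 to 420 against 428 to 465 CPM), and cox-6B by 10.1% with overlapping libraries (264 to 313 against 302 to 323 CPM). The call of cox-6B was lost in 5 of the 8 fits that left out a library (highest edgeR adjusted p = 0.0934). cox-6A, cox-4 and cox-7C lay at -0.14, -0.11 and -0.11 and were not called. In the sum over complex IV light plus ATR replicate 4 was the highest of its group, with 1830 CPM against 1576 to 1660 CPM in the other 3.

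Complex IV is built with the help of assembly factors. Of the 8, only cox-18, which inserts a mitochondrially encoded subunit into the membrane, was called: it had 16.0, 16.0, 16.5 and 15.7 CPM against 19.9, 20.0, 18.1 and 18.4 CPM, did not overlap and changed by -0.25 ± 0.06 (edgeR adjusted p = 0.00793). The median of the assembly factors was -0.08 and that of the complex IV subunits -0.15, with a median SE of 0.057 and 0.048, and the difference between these groups was not tested. cox-10 and cox-15, which make the heme A cofactor, had -0.18 ± 0.11 and -0.10 ± 0.05, and cox-11, cox-17 and cox-19, which handle copper, had -0.10, -0.05 and 0.01. cox-14 and cox-16 were at -0.04 and -0.05. For cox-14 75.7% and for cox-16 30.3% of the exon length is shared with another gene on the same strand, and the gene called cox-16 in the matrix has the name C24G6.8 in Ensembl release 115, so both are uncertain.

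Of the ATP synthase genes 4 of 5 fell against light minus ATR. atp-2, its catalytic beta subunit, had 2063, 2016, 2017 and 2115 CPM in light plus ATR and 2379, 2545, 2285 and 2395 CPM in light minus ATR. The lowest of all 12 control libraries was 2244 CPM, so no library overlapped, and the change was -0.23 ± 0.05 (edgeR adjusted p = 0.00276). atp-1, the alpha subunit, stood at 1779 to 1840 CPM against 1944 to 2138 CPM and fell by 11.6% (edgeR adjusted p = 0.0112). In the stalk that holds the catalytic head, atp-3 and atp-5 fell, with -0.15 and -0.17, and without light minus ATR replicate 2 only atp-2 of the ATP synthase genes was called. atp-4 (-0.16 ± 0.06, edgeR adjusted p = 0.065) was not called. The 5 genes summed to 5050 ± 122 CPM in light plus ATR and 5775 ± 236 CPM in light minus ATR (SD, n = 4).

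**Figure D4:**
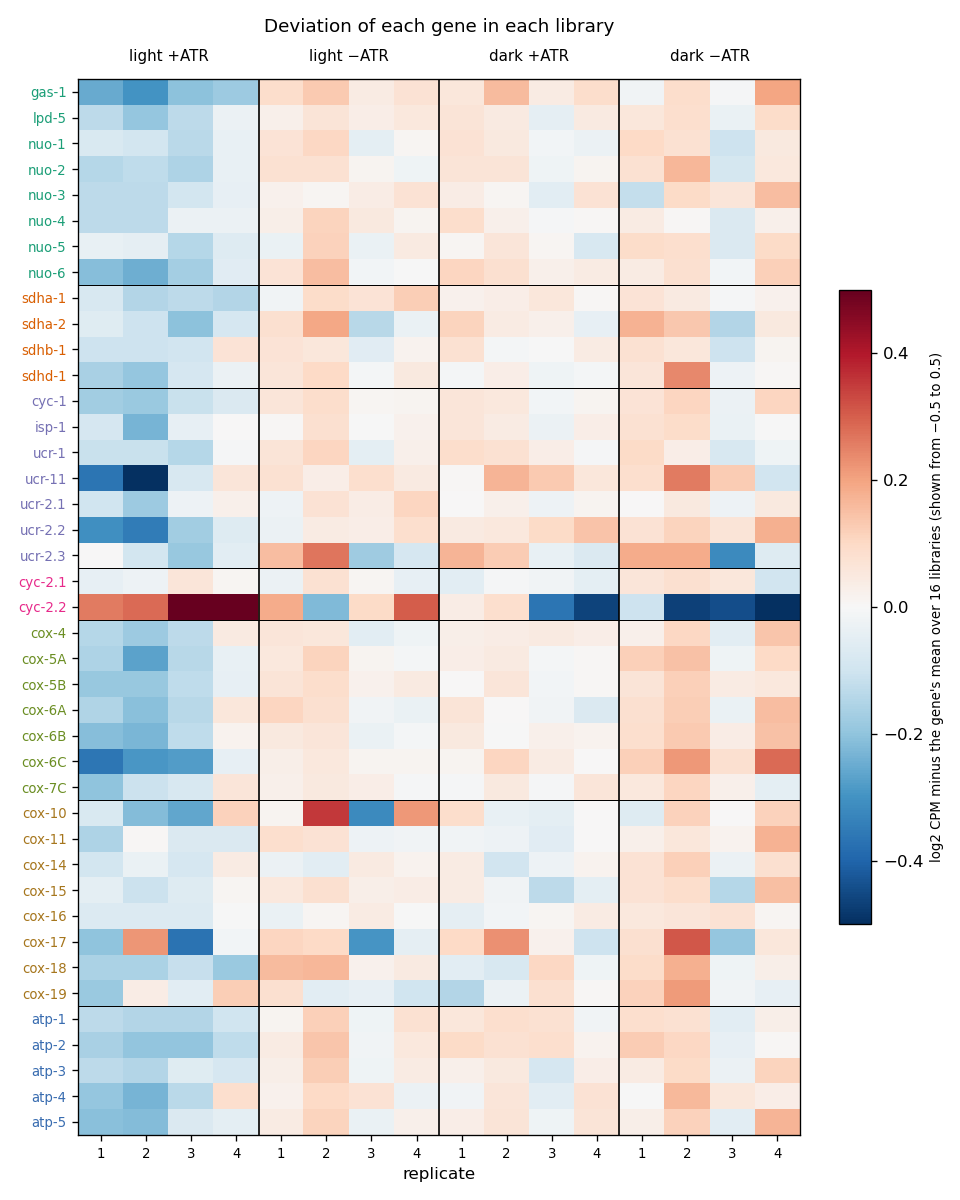
Log2 CPM of each of the 41 genes (rows, ordered by complex) in each of the 16 libraries (columns) minus the mean of that gene over the libraries. Replicates 1, 2 and 3 of light plus ATR are blue (lower) for most genes. Replicate 4 is mixed, with atp-4 (263 CPM), sdhb-1 (202 CPM) and cox-4 (354 CPM) among the genes above their means (249, 193 and 344 CPM). cyc-2.2 is red (higher) in all light plus ATR libraries and reaches 21.1 CPM in replicate 4.

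Levels differed widely between genes of the same complex. Per kilobase of exon, the mean level over all libraries was highest for atp-2 (1201 CPM) and lowest for cox-10 (7.17 CPM). Within ATP synthase atp-4 was the lowest at 459 CPM, and among the assembly factors cox-16 was the highest at 109 CPM. In complex I the range ran from gas-1 (57.1 CPM) to nuo-1 (219 CPM), in complex II from sdha-1 (49.4 CPM) to sdhb-1 (183 CPM), in complex III from ucr-2.2 (43.9 CPM) to isp-1 (331 CPM) and in complex IV from cox-6C (267 CPM) to cox-5A (580 CPM). In each of these 4 complexes the gene with the lowest level per kilobase was also the called gene with the smallest p. gas-1, sdha-1 and ucr-2.2 are on chromosome X, which holds 4 of the 41 genes. The fourth, ucr-2.1, was not called, and 8.65% of the 2092 X-linked genes tested fell, against 7.9% of all genes.

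Paralogues outside the name rule had negative signs too. nduf-2.2, the paralogue of gas-1, was at -0.12 ± 0.07 (edgeR adjusted p = 0.204). Of the ATP synthase b subunits, asb-2 was called at -0.20 ± 0.05 (edgeR adjusted p = 0.00373), while asb-1 was at -0.15 ± 0.09 (edgeR adjusted p = 0.239). Whether the paralogues of a pair differ in their change was not tested.

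Dark plus ATR gave a second control for light plus ATR, with the same cofactor and no blue light pulses. The study states that room light at collection can open the channel too, with a weaker contraction that lacks the sustained effects. Against it 17 of the 41 genes fell and 1 rose, beside 11.6% and 16.2% of all genes, and the median was -0.13. The genes with the smallest p among those that fell were gas-1 (-0.32 ± 0.04, edgeR adjusted p = 1.94e-05), ucr-2.2 (-0.30 ± 0.05, edgeR adjusted p = 0.000165) and cox-6C (-0.28 ± 0.05, edgeR adjusted p = 0.000666). The gene that rose was cyc-2.2, by 59% (0.67 ± 0.16, edgeR adjusted p = 0.00628), and its lowest light plus ATR library (13.9 CPM) lay above every dark plus ATR library (mean 10.4 ± 1.99 CPM). With library totals 5 genes were called lower and with ERCC counts 3. The numbers of all genes lower and higher changed from 1738 and 2431 to 716 and 3374 and to 635 and 1677. Among the markers 5 of 11 germline, 5 of 8 embryo and 3 of 3 vitellogenin genes fell, and 6 of 8 body wall muscle and 3 of 4 pharyngeal muscle genes rose, and their part in the result was not tested.

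Against dark minus ATR, which had neither light nor cofactor, 26 genes fell and 1 rose, beside 16.5% and 20.4% of all genes, and the median was -0.16. The smallest p among the genes that fell was that of cox-6C (-0.42 ± 0.05, edgeR adjusted p = 6.42e-06), with 82.4 to 103 against 112 to 129 CPM. Next by p came gas-1 at -0.30 and ucr-2.2 at -0.33. By size ucr-11 (-0.32 ± 0.11, edgeR adjusted p = 0.0416) lay between them, with overlapping libraries. cyc-2.2 rose by 87.7% (0.91 ± 0.17, edgeR adjusted p = 0.000603). All 5 ATP synthase genes and 6 of the 7 complex IV subunits fell in this comparison. With library totals 9 genes were called lower and with ERCC counts 1, cox-6C, and all genes lower and higher changed from 2478 and 3068 to 909 and 4091 and to 396 and 3841. Here 7 of 11 germline, 7 of 8 embryo and 3 of 3 vitellogenin markers fell, and 7 of 8 body wall muscle and 4 of 4 pharyngeal muscle markers rose. ERCC scaling moved the median of all genes by more here, to 0.16, and the members' median to -0.01, with 22 of 41 signs negative. Relative to all genes the members' median was -0.17 with ERCC counts and with TMM. The comparisons share the light plus ATR libraries and are not independent.

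No gene of the 41 was called when light or ATR alone was set against dark minus ATR. In light minus ATR against dark minus ATR edgeR called 0 lower and 0 higher, and 0% of all genes tested in either direction, with 1 gene of the 41 lower and 1 higher, and 811 and 1201 of all genes, at an unadjusted p under 0.05. The median of the 41 genes was -0.02. DESeq2 and limma called 0 of the 41 here too, although of all genes DESeq2 called 63 lower and 114 higher and limma 0 and 2. The pair past the unadjusted threshold were cyc-2.2 (0.50 ± 0.17, edgeR adjusted p = 0.225) and cox-6C (-0.15 ± 0.05, edgeR adjusted p = 0.225). For dark plus ATR against dark minus ATR edgeR, DESeq2 and limma called 0 of the 41, where edgeR called 0.0332% of all genes lower and 0.0332% higher. The median of the 41 genes was -0.03. At an unadjusted p under 0.05, 1 of them (cox-6C) was lower and 0 higher, against 641 and 538 of all genes. ERCC scaling turned most signs in these comparisons, to 40 and 41 of the 41 positive, and the median of all genes moved to 0.11 and 0.15, so that no direction is read from them.

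The interaction of light and ATR asks whether ATR changed a gene more with light than in the dark. It was negative for 37 of the 41 genes, with a median of -0.11 against 0.01 for all genes, and 4 genes passed the test in this direction and 0 in the other, where 2.65% and 2.58% of all genes did. These were gas-1 (-0.33 ± 0.06, edgeR adjusted p = 0.00159), sdha-1 (-0.19 ± 0.05, edgeR adjusted p = 0.0239), atp-2 (-0.25 ± 0.07, edgeR adjusted p = 0.0421) and nuo-6 (-0.22 ± 0.06, edgeR adjusted p = 0.0433). At an unadjusted p under 0.05, 11 were lower and 0 higher, against 1261 and 1233 of all genes. DESeq2 and limma called 0 higher too. With library totals and ERCC counts all genes lower and higher changed from 399 and 388 to 284 and 589 and to 296 and 124. gas-1 alone was called when each of the 16 libraries was left out in turn, and alone with library totals, with ERCC counts or without the filter on low counts. Without light minus ATR replicate 2 or light plus ATR replicate 2 the count was 1, and of all genes 320 and 343 were lower in place of 399.

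The other genes of the pathway were read for light plus ATR versus light minus ATR. Of 37 listed nuclear subunits that the name rule left out, 20 fell and 0 rose, with a median of -0.15. The list does not hold mev-1. Among them asg-2, a g subunit of ATP synthase, was at -0.33 ± 0.05 (edgeR adjusted p = 0.000139), and R53.4, an f subunit, at -0.18. Their summed level was 5964 to 6766 CPM in light plus ATR and 6818 to 7348 CPM in light minus ATR.

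Of the 12 mitochondrially encoded genes edgeR called 0, and 0 in either direction were past an unadjusted p under 0.05. Their median was -0.08 with a median SE of 0.217, against 0.047 for the 41 nuclear genes. Their sums overlapped widely, at 2161, 2646, 3835 and 2858 CPM in light plus ATR and 3577, 3138, 3127 and 3538 CPM in light minus ATR. A fall of the size seen in the nuclear genes was not detectable at this spread, and the RNA was selected by poly(A) tails. Against dark minus ATR 10 of the 12 signs were positive, with a median of 0.23 and a median SE of 0.218. There 1 gene was called higher and 0 lower, beside 20.4% and 16.5% of all genes. Light minus ATR against dark minus ATR had 12 positive signs and 0 calls.

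In the citric acid cycle, which feeds the chain with NADH and succinate, 7 of 15 genes fell and 0 rose, with a median of -0.11. mdh-2, the mitochondrial malate dehydrogenase, was at -0.36 ± 0.04 (edgeR adjusted p = 2.43e-06), whereas citrate synthase cts-1 was at -0.04 and ogdh-1 at -0.00027. Of 9 genes listed for the mitochondrial unfolded protein response, 2 fell and 0 rose: hsp-60, a matrix chaperonin, at -0.43 ± 0.06 and gpd-2, a glyceraldehyde-3-phosphate dehydrogenase of glycolysis, at -0.55 ± 0.05. The chaperone hsp-6 was at -0.07 and the transcription factor atfs-1 at -0.05, and neither was called. The ATP synthase inhibitors mai-1 and mai-2 were at -0.24 ± 0.12 and -0.21 ± 0.08, not called here and both called lower against dark minus ATR.

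**Figure D5:**
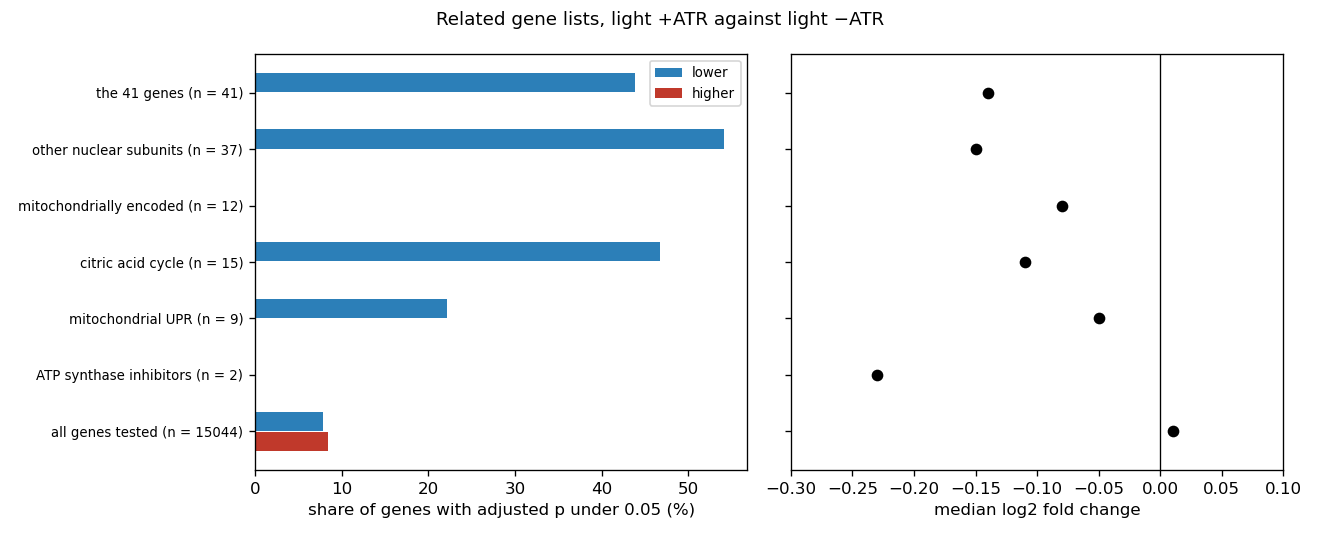
Share of genes with an adjusted p under 0.05 for light plus ATR versus light minus ATR (left, bars from 0%, lower in blue and higher in red) and median log2 fold change (right) for the 41 genes, related lists and all genes tested. The 41 genes have 43.9% lower and 0% higher, and all genes 7.9% and 8.39%.

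The 41 genes were shorter than most, with a median exon length of 986 bases against 1363 for the genes tested, and their median level was 161 CPM. Their median SE of 0.047 was smaller than the 0.096 of all genes, so that smaller changes passed the test. The trend of fold change with exon length ran the other way: at the lengths of the 41 genes it lay at 0.05, and with the trend removed their median was -0.20.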

How the data were processed

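RNA was sequenced from whole worms, in 16 libraries of 4 conditions. The authors ran salmon (nf-core workflow, WBcel235) and deposited estimated counts per gene without normalization. A combined table labelled TPM holds the same estimated counts, by its values, and was treated as counts. The submitters' processing notes name R 4.0.3 and DESeq2 1.30.1. Counts were rounded here, genes filtered with filterByExpr, scaled by TMM and tested with edgeR 4.0.16 (R 4.3.3) in a robust quasi-likelihood fit of all 16 libraries with a coefficient per condition. The SE is the fold change divided by the square root of F. Benjamini-Hochberg adjustment ran over all 15044 genes, with a threshold of 0.05. Log2 CPM used a prior count of 2. Gene names and positions came from Ensembl release 115 (46817 genes matched, including all 41). Level per kilobase is CPM divided by exon length.

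The study's methods call the replicates independent and biological. No replicate pair agreed within sampling noise. Alternatives were DESeq2 1.42.0, limma-trend (limma 3.58.1), library totals, ERCC counts, TMM leaving out markers of germline, embryo and sperm, no filter, the replicate number as a block, only the compared groups, an exon length trend and each library left out. The fit was run on simulated counts with known changes, as a check of the code. Those libraries were drawn independently, with changes larger than in most of the genes followed here. The simulation therefore does not bear on shared replicate differences or on changes of this size. The genes, lists, markers and tests were chosen with earlier results of these data known.

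Named genes were, per complex, up to 3 called genes with the smallest p in each direction against light minus ATR, up to 3 in each other comparison, the highest and lowest level per complex, paralogue sets, and gas-1, nuo-6, isp-1, atp-2 and cox-5B. Further members were named to account for all 41, after their values were seen, as were the genes of other lists. No sequences were printed, since none were in the reference used here.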

Additional observations from a re-analysis of the deposited data

Results flagged for a closer look

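In 5 of the 164 groups of 4 libraries (41 genes in 4 conditions) a single library lay far from the others, and chance gives such a gap in about 1 in 20 groups. In light plus ATR replicate 4 was the high library for nuo-2 (113 CPM), sdhb-1 (202 CPM) and cox-16 (133 CPM). In dark minus ATR the low libraries were replicate 3 for nuo-5 (301 CPM) and replicate 4 for cyc-2.1 (445 CPM). Without light plus ATR replicate 4, 27 of the 41 genes were lower against light minus ATR, compared with 18 with all libraries. Of all genes 1153 were lower in that fit, compared with 1188 with all libraries.

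The change with ATR differed between light and dark for 4 genes by edgeR's test of the interaction: gas-1 (-0.33, edgeR adjusted p = 0.00159), sdha-1 (-0.19, edgeR adjusted p = 0.0239), atp-2 (-0.25, edgeR adjusted p = 0.0421) and nuo-6 (-0.22, edgeR adjusted p = 0.0433).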

How the results depend on the processing

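Against light minus ATR, the median of the 41 genes and of each complex kept its sign with DESeq2, library totals, ERCC counts, TMM leaving out markers of germline, embryo and sperm and with the exon length trend removed. With library totals the number lower was 8 in place of 18 against light minus ATR, 5 in place of 17 against dark plus ATR, 9 in place of 26 against dark minus ATR and 1 in place of 4 in the interaction, and the number higher against dark plus ATR was 2 in place of 1 (cyc-2.1 was added). With ERCC counts the numbers lower were 1, 3, 1 and 1. Both scalings moved the median of all genes, and the cause of the lost calls was not tested beyond that. The ERCC share was 0.727% to 0.962% of the counts on genes over libraries. DESeq2 called 1 gene higher against light minus ATR (cyc-2.2) in place of 0, and without the filter on low counts the interaction had 1.

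When each library was left out in turn, the number lower was 11 to 27 against light minus ATR, 13 to 25 against dark plus ATR, 20 to 32 against dark minus ATR and 1 to 5 in the interaction. Of all genes 733 to 1153, 1375 to 1715, 2031 to 2598 and 320 to 440 were lower. In these fits 11 of 18, 14 of 18, 20 of 27 and 1 of 4 calls in either direction were kept each time. The median against light minus ATR was -0.07 with library totals and -0.20 with the exon length trend removed. Correlations of same-numbered libraries ran from -0.177 to 0.189 and gave no sign of a general pairing by replicate number. They do not exclude replicate differences shared between conditions in single genes or in the 41 genes together. For ucr-2.3 and sdha-2, replicates 1 and 2 lay above replicates 3 and 4 in each control condition, but not in light plus ATR. The sum over the 41 genes had the same order. In replicates 1 to 4 it was 12071, 12680, 11671 and 12031 CPM in light minus ATR. Dark plus ATR had 12203, 12248, 11971 and 11830 CPM, and dark minus ATR 12454, 12600, 11477 and 12171 CPM. In light plus ATR it was 10687, 10500, 10784 and 11341 CPM. The size of the fall therefore varied with the replicates compared. With the replicate block 22, 21 and 27 genes were lower in place of 18, 17 and 26, and 5 in place of 4 in the interaction. Of all genes 1427, 2017 and 2669 were lower with the block in place of 1188, 1738 and 2478, and 562 in place of 399.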
